A study of Sesuvium portulacastrum with 18 samples.

Results

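Transcript levels were compared between shoots of Sesuvium portulacastrum after 8 h in 250 mM NaCl and shoots at 0 h. The comparison used 6 of the 18 libraries of the series, chosen by their labels: 3 biological replicates at 8 h and 3 at 0 h. The 3 shoot libraries at 24 h in 250 mM NaCl also entered the fit and served to rank transcripts by level. All 40220 shoot transcripts with enough counts were tested, out of 99653 transcript IDs. The plants grew from stem cuttings in liquid medium, and the seedlings were 15 days old. At 0 h the medium was replaced with control medium and the shoots were taken immediately, whereas the 8 h shoots were taken 8 h after the change to salt medium. No shoots kept for 8 h in control medium are among the samples, so salt, the hour of harvest and the time since the change of medium cannot be told apart.

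Sesuvium portulacastrum is a coastal halophyte, a plant that completes its life on saline ground. In such plants the first hours of salt bring a fall in water potential around the root, followed by the arrival of sodium and chloride in the shoot with the transpiration stream. Halophyte shoots are known for storing these ions in leaf vacuoles, for balancing them with organic solutes in the cytoplasm and for slowing or redirecting growth and photosynthesis, processes that need changes in many transcripts. The transcripts here carry IDs without gene names or sequences, so none could be assigned to these processes, and shoot identity could not be checked with marker genes. The comparison is therefore described by size, direction, level and consistency. Fewer cells of a type and less RNA per cell cannot be told apart in such bulk samples.

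The 8 h libraries held 11999463 to 12593709 estimated counts and the 0 h libraries 10050233 to 15068602. No pair of replicates was identical, and every pair within a group differed by more than counting noise, with a chi-square per degree of freedom of 5.04 to 8.16 at 8 h and 12.2 to 23.8 at 0 h over 14451 transcripts with at least 100 counts on average. The 3 libraries at 8 h thus lay closer to each other than the 3 at 0 h. Levels below are the authors' normalized CPM, counts scaled to the size of the library and corrected for its composition. The test was edgeR's quasi-likelihood test, fitted over the 9 shoot libraries, which gave the log2 fold changes, their standard errors (SE) and the adjusted p-values. A transcript is said to have risen or fallen where the Benjamini-Hochberg adjusted p lay under 0.05. The files give no transcript lengths, so a high level can reflect a long transcript as well as many molecules.

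The 10 largest losses of signal, in normalized CPM, came from transcripts over 100 CPM at 0 h, and so did 8 of the 10 largest gains. The other 2 gains started at 37.3 and 43.8 CPM at 0 h and rose 33.2- and 24.2-fold. Their ID numbers are no more than 2 apart, so they may not be independent genes. S_Transcript_58763.p1 had the largest gain, with 4312, 4094 and 5059 CPM at 8 h against 690, 610 and 592 CPM at 0 h. All 3 libraries at 8 h were far above those at 0 h, a rise of 2.81 on the log2 scale (SE 0.19, adjusted p = 3.97e-07 by edgeR). It was the most abundant transcript of the 8 h shoots. S_Transcript_50489.p1 gained the next most, with 2678, 2783 and 2377 CPM at 8 h against 549, 424 and 516 CPM at 0 h. The groups again did not overlap, and the log2 fold change was 2.38 (SE 0.15, adjusted p = 2.25e-07 by edgeR).

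S_Transcript_15011.p1 lost the most signal, with 4038, 4022 and 3487 CPM at 8 h against 14646, 17022 and 20343 CPM at 0 h. The lowest 0 h library stood well above the highest 8 h library, and the log2 fold change was -2.18 (SE 0.12, adjusted p = 6.3e-08 by edgeR). It was the most abundant shoot transcript at 0 h. S_Transcript_7236.p1 followed, with 2862, 2867 and 2432 CPM at 8 h against 7685, 9221 and 10232 CPM at 0 h. Its groups did not overlap either, with a log2 fold change of -1.75 (SE 0.11, adjusted p = 2.62e-07 by edgeR). When the fit also held, as a covariate, the percentage of counts taken by the 10 most abundant transcripts of a library, S_Transcript_58763.p1 no longer passed the test (log2 fold change 1.73, adjusted p = 0.0936 by edgeR), and the changes of S_Transcript_15011.p1 and S_Transcript_7236.p1 shrank to -1.30 and -0.96. That share itself went with the groups, as given below. It also holds counts of these transcripts: S_Transcript_58763.p1 led at 8 h, S_Transcript_15011.p1 led at 0 h and S_Transcript_7236.p1 ranked 2 by level at 24 h. Their own counts thus enter the covariate, those of S_Transcript_58763.p1 at 8 h, while it ranked 201 by level at 24 h. Why the changes were smaller in this fit was not tested.

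**Figure D1:**
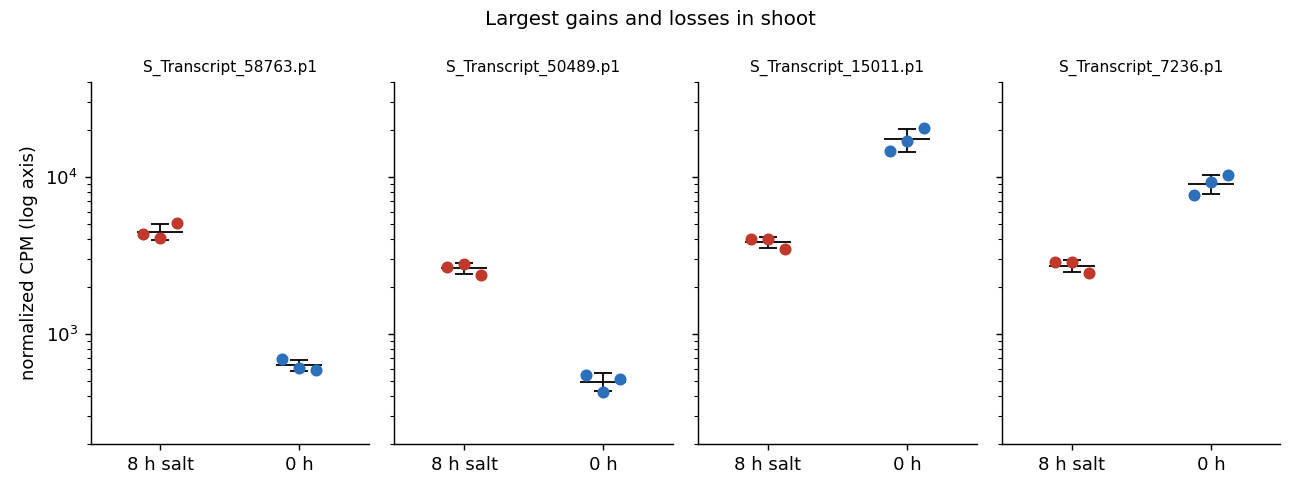
Normalized CPM on a log axis for the 2 shoot transcripts with the largest gain and the 2 with the largest loss, in the 3 libraries at 8 h in salt (left, red) and the 3 at 0 h (right, blue). Points are libraries and bars give the mean and SD. S_Transcript_58763.p1 averaged 4488 CPM at 8 h and 631 CPM at 0 h, and S_Transcript_15011.p1 averaged 3849 CPM at 8 h and 17337 CPM at 0 h.

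Under the authors' scaling, gains and losses were of unequal size. Summed over the 4279 transcripts that rose (10.6% of those tested), the gain in mean normalized CPM was 92501, and summed over the 6081 that fell (15.1%), the loss was 247643. The scaling enters both the sums and the choice of the sets, which were called with TMM, edgeR's trimmed mean of M values. The normalized CPM of a library summed to 899814 ± 12894 at 8 h and 1053740 ± 56648 at 0 h (SD, n = 3 each). As a percentage of each library's counts, the rising set took 23.6 ± 0.318% at 8 h and 11.4 ± 0.153% at 0 h, and the falling set took 24.8 ± 0.113% at 8 h and 44.7 ± 0.859% at 0 h. The largest single gain made up 4.17% of all gain, the 10 largest 15.2% and the 100 largest 41.8%. The largest single loss made up 5.45% of all loss, the 10 largest 18.2% and the 100 largest 46.2%. Thus 172 transcripts carried 50% of the gain and 130 carried 50% of the loss. The 10 largest gains ran from 1.41- to 33.2-fold, and 6 of them were at least 2-fold. The 10 largest losses were all at least 2-fold, from 2.40- to 10.8-fold lower at 8 h. The calls that define the sets came from the same libraries, so the sums are a description of the change.

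The most abundant transcripts took a smaller share of the counts at 8 h, a measure that does not depend on the scaling. The 10 most abundant transcripts of each library held 3.31%, 3.33% and 3.28% of its counts at 8 h, against 5.25%, 6.08% and 6.47% at 0 h. The single most abundant held 0.476%, 0.463% and 0.557% at 8 h, against 1.46%, 1.64% and 1.82% at 0 h. The groups did not overlap in either measure. The 100 most abundant held 15.6 ± 0.0689% at 8 h and 19.8 ± 1.37% at 0 h (SD, n = 3 each). The number of transcripts that together held 50% of a library's counts was 1550, 1535 and 1538 at 8 h, against 1299, 1207 and 1084 at 0 h. Each of these differences had a two-sided exact permutation p of 0.1, the smallest that 3 against 3 libraries can give. The number of transcripts detected, brought to the depth of the smallest library, was 63210 ± 684 at 8 h and 62225 ± 1054 at 0 h, a difference within the spread (exact permutation p = 0.2). Over the 10 such measures tested, the Benjamini-Hochberg adjusted permutation p was 0.143 where the unadjusted value was 0.1, and 0.25 for the number detected at equal depth.

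The set of leading transcripts turned over in part. Of the 100 transcripts with the highest mean level at 8 h, 70 were also among the 100 highest at 0 h. All 30 that were in the 0 h set alone fell, and 17 of the 30 in the 8 h set alone rose. Among the 70 in both sets, 37 fell and 9 rose. Membership in these sets follows from the levels compared, so the directions are given as a description.

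By number, 10360 of 40220 tested transcripts (25.8%) changed. An unadjusted p under 0.05 was reached by 14542. A change of at least 2-fold was found for 1753 transcripts that rose (4.36%) and 3268 that fell (8.13%). The split between directions depended on the scaling. With library size alone in place of TMM, which moved the median log2 fold change of all tested transcripts to 0.24, 8743 were higher and 4108 lower, and at 2-fold or more 3171 were higher and 2439 lower. At 4-fold or more, falls outnumbered rises under both scalings, with 378 higher and 1251 lower under TMM and 573 higher and 957 lower under library size alone.

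Under TMM scaling the rises were smaller than the falls. The median rise was 0.86 on the log2 scale (1.81-fold), with the middle 50% of rises between 0.56 and 1.31. The median fall was -1.07 (2.10-fold), with the middle 50% of falls between -1.79 and -0.65. Of the rises 8.83% reached 4-fold and 2.87% reached 8-fold, against 20.6% and 7.98% of the falls. The ratio of falls to rises under TMM was 1.42 over all calls, 1.86 from 2-fold, 3.31 from 4-fold and 3.94 from 8-fold. At 64-fold or more there were 47 falls and 15 rises. Among calls without overlap that averaged at least 10 counts in the lower group, the largest rise was 33.2-fold in mean CPM. The fall at rank 10 was 59.0-fold. The 15 rises and most of the 47 falls thus lay outside those conditions, where few counts can set the fitted size. With library size alone, rises outnumbered falls over all calls and from 2-fold, as given above, and changes from 8-fold were counted under TMM only. The smallest called change was 0.22 in size on the log2 scale in both directions. A further 1579 transcripts had a fitted change of at least 2-fold without passing the test, and 133 of these had 4-fold or more. The median SE was 0.29 among transcripts not called, 0.17 among those that rose and 0.17 among those that fell.

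**Figure D2:**
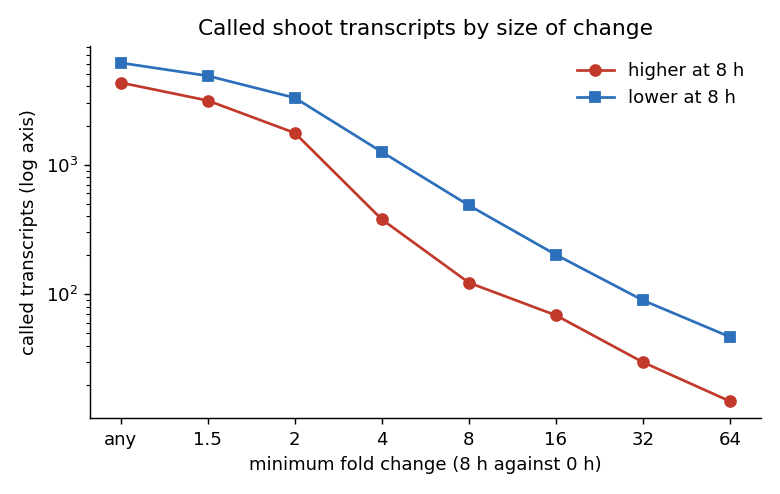
Number of called shoot transcripts (log axis) at or above each minimum fold change between 8 h and 0 h, for transcripts higher (red circles) and lower (blue squares) at 8 h under TMM scaling. At 8-fold or more there were 123 higher and 485 lower transcripts.

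The transcripts with the largest fold changes differed from those that moved the most signal. The 10 largest rises by fold, among transcripts averaging at least 10 counts in the lower group, lay between 4.23 and 5.04 on the log2 scale (19.0- to 33.2-fold in mean CPM). They stood between 19.3 and 1240 CPM at 8 h and between 0.859 and 43.8 CPM at 0 h. Only 2 of them were among the 10 largest gains in CPM. Among the 10, 2 pairs had ID numbers no more than 2 apart, so they may not be independent genes. The 10 largest falls by fold lay between -8.33 and -5.88 on the log2 scale, with 0.797 to 20.8 CPM at 8 h and 51.3 to 1372 CPM at 0 h. None of these was among the 10 largest losses in CPM, and 7 of them had averaged over 100 CPM at 0 h.

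A few of these transcripts, picked after their values were seen, show the change library by library. The fall at rank 7 by fold had 21.9, 20.6 and 20.0 CPM at 8 h, against 1341, 1320 and 1455 CPM at 0 h. The fall at rank 6 had 2.09, 1.48 and 1.88 CPM at 8 h, against 118, 124 and 133 CPM at 0 h. In both, every 8 h library lay far below every 0 h library. On the rising side, the transcript at rank 4 by fold had 344, 337 and 314 CPM at 8 h, against 11.3, 13.98 and 10.3 CPM at 0 h.

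A small number of transcripts had counts in only a single group of the comparison, whatever their counts at 24 h. Among called transcripts, 12 had no counts in any 0 h library and 29 had none in any 8 h library. The strongest of the 12 had 61, 62 and 66 counts at 8 h. In normalized CPM and set against a limit of 3 counts over the whole 0 h group, it was at least 54.3-fold higher at 8 h. Of the 29, the strongest had 91, 163 and 240 counts at 0 h and was at least 191-fold lower at 8 h. The next had 114, 78 and 114 counts at 0 h and was at least 118-fold lower at 8 h. These limits cover counting error only. The remaining transcripts of both sets had lower counts, and the weakest rested on 10 counts over the 3 libraries at 8 h and 11 over the 3 at 0 h.

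Most IDs stood for a transcript number of their own. Of the tested IDs, 3038 shared a number with another tested ID and differed only in the suffix after the point, which gave 1953 pairs. In 219 pairs both IDs changed, 207 with matching signs and 12 with opposite signs, while in 406 pairs only 1 of the IDs passed the test. Reads can be split between such IDs, so their values are not independent. The 10360 called IDs came from 10160 transcript numbers.

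The chance of a call depended on level. Ranking used the mean level in the 3 shoot libraries at 24 h in NaCl, which hold neither group of the comparison, so counting noise in the compared libraries could not decide the rank. In the lowest decile of 4022 transcripts (up to 0.831 CPM at 24 h) 12.7% were called, in the fifth decile 18.5%, in the eighth 37.8% and in the highest decile (48.9 CPM and over) 54.6%. The median SE fell over the same range, at 0.52 in the lowest decile and 0.10 in the highest. Smaller changes passed where levels were high: the median rise was 2.00 on the log2 scale in the lowest decile and 0.50 in the highest, and the median fall was -2.16 in the lowest and -0.80 in the highest. Fitted changes of at least 2-fold, called or not, were found for 28.5% of transcripts in the lowest decile, 13.5% in the fifth and 18.6% in the highest.

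Rises and falls followed level differently. The share that rose was 9.25% in the lowest decile, 4.53% in the second, 16.1% in the ninth and 14.9% in the highest. The share that fell was 3.48% in the lowest decile, 27.5% in the ninth and 39.7% in the highest, where 1596 transcripts fell and 601 rose. At 2-fold or more the highest decile held 89 rises and 657 falls, and at 8-fold or more 0 rises and 99 falls. Ranked by the 8 h level instead, the highest decile held 230 rises and 245 falls at 2-fold or more, and 16 rises and 6 falls at 8-fold or more. Ranked by the mean of the 8 h and 0 h levels it held 162 and 484, and 12 and 69. A transcript that was low at 24 h passed the filter on counts mostly through a high level at 8 h or 0 h, so the counts of the lowest decile are a description only. It held 371 rises and 139 falls of at least 2-fold by the 24 h level, against 134 rises and 268 falls by the mean of the 8 h and 0 h levels. Of the 10 transcripts with the highest level at 24 h, 9 fell and none rose. The remaining transcript, the eighth by level, had 3462, 3468 and 3608 CPM at 8 h against 3682, 3973 and 4747 CPM at 0 h, and missed the threshold (log2 fold change -0.25, SE 0.087, adjusted p = 0.0562 by edgeR). Of the 1000 highest, 120 rose and 512 fell, 20 and 251 of them at least 2-fold. Under library size alone the highest decile held 1343 rises and 1090 falls, so the direction of the excess there depended on the scaling.

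**Figure D3:**
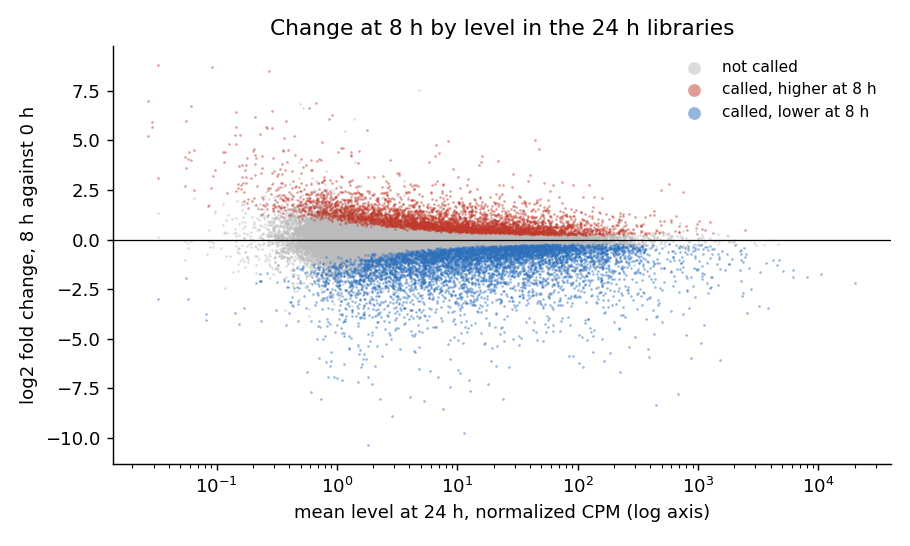
Log2 fold change between 8 h and 0 h in shoot for each tested transcript against its mean normalized CPM in the 24 h libraries (log axis). Red points were called higher at 8 h, blue points called lower and grey points not called, and 15 transcripts at 0 CPM at 24 h are not drawn. At 100 CPM and over on this axis 67 falls and 0 rises reached 8-fold, which depends on the axis: in the highest decile by the 8 h level, 16 rises and 6 falls did.

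Classes of absolute level at 24 h gave these counts, which carry the same limits of filter and ranking as the deciles by the 24 h level. Among the 5930 transcripts under 1 CPM at 24 h, 460 rose and 202 fell. Between 1 and 10 CPM 1836 rose and 2143 fell, between 10 and 100 CPM 1745 rose and 2893 fell, and among the 1789 at 100 CPM and over 238 rose and 843 fell. In the last class 7 rises and 160 falls reached 4-fold. Transcripts that rose had a median level of 14.9 CPM at 8 h and 8.18 CPM at 0 h, and those that fell had 7.92 CPM at 8 h and 18.2 CPM at 0 h. The tested transcripts that did not pass had a median of 2.90 CPM at 8 h and 2.84 CPM at 0 h.

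The excess of falls among abundant transcripts also depended on which libraries set the rank. The shoot at 24 h was nearer to 0 h than to 8 h in the share held by its most abundant transcripts (6.86% to 7.27% in the top 10), so a rank by 24 h favours transcripts that are high outside 8 h. Ranked by the mean of the 8 h and 0 h levels, the highest decile held 778 rises (19.3%) and 1333 falls (33.1%). Ranked by the 8 h level alone, it held 991 rises (24.6%) and 994 falls (24.7%). Ranked by the 0 h level alone, it held 564 rises and 1609 falls. Ranks by a group of the comparison share its noise and favour that group's high transcripts. With each transcript ranked by the higher of its group means, the 1000 highest held 210 rises and 449 falls, of which 64 and 209 were at least 2-fold. Under all 4 rankings the call rate was highest in the highest decile, between 49.4% and 54.6%, and lowest in the second, between 8.01% and 9.10%. The lowest decile by the 8 h level had 21.8% called, nearly all of them falls.

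**Figure D4:**
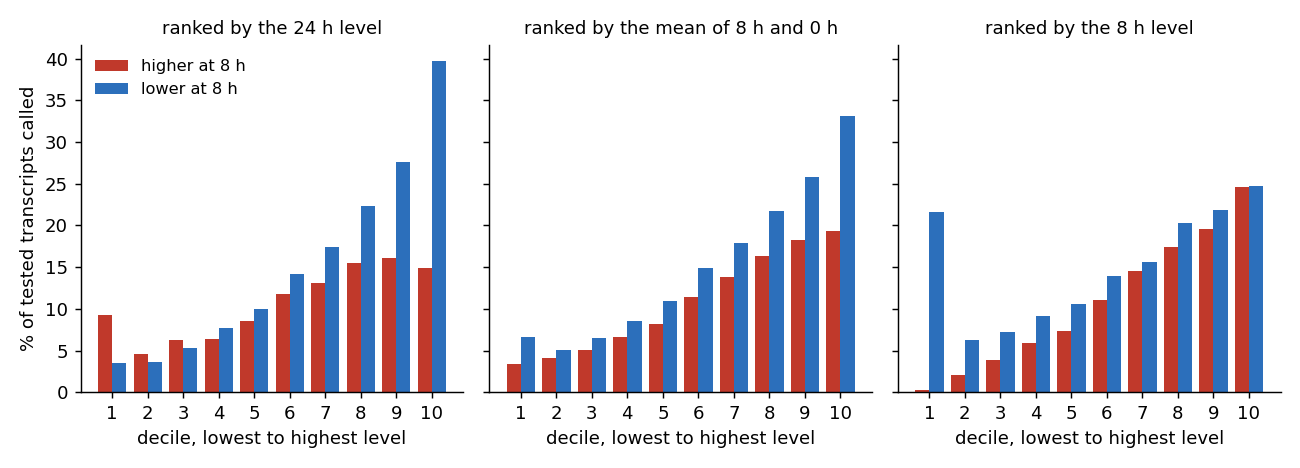
Percentage of tested shoot transcripts called higher (red) and lower (blue) at 8 h in each decile of level, from lowest to highest, ranked by the 24 h level, by the mean of the 8 h and 0 h levels or by the 8 h level. Falls exceed rises in the highest decile in the first and second panels (39.7% and 33.1% lower), and the directions are nearly equal there in the third.

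The median change over a decile depended on the ranking. By the 24 h level it was 0.23 on the log2 scale in the lowest decile and -0.16 in the highest. For the lowest decile it was -0.65 by the 8 h level, 0.55 by the 0 h level and -0.0088 by the mean of both, and -0.26 by the 24 h level in the fit with the top-10 percentage as a covariate. For the highest decile it was 0.0053, -0.18, -0.082 and -0.028 in the same order. In the separate 8 h libraries, each set against the 0 h mean on a log2 scale with a prior count of 2, the median of the lowest decile was 0.25, 0.28 and 0.30, and that of the highest decile was -0.15, -0.16 and -0.17. The sign of each median did not differ between the 3 libraries, which were all set against the same 0 h mean, so the spread at 0 h does not enter. Some transcripts of the lowest decile were tested only because they were higher at 8 h or 0 h, which adds changed transcripts there, and with a minimum of 10 counts in each 24 h library as the filter its median was 0.073. With library size alone as the scaling the highest decile had a median of 0.087 and the lowest 0.47.

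The changes were consistent across libraries. Among transcripts that rose, 4247 of 4279 (99.3%) had all 3 libraries at 8 h above all 3 at 0 h, and among those that fell 5930 of 6081 (97.5%) had all 3 below. Of all tested transcripts, 41.1% had groups that did not overlap, 20.1% with 8 h above and 21% with 8 h below. A call and a lack of overlap rest on the same values, so the first shares are a description. For 812 rises the lowest 8 h library was at least 2-fold above the highest 0 h library, and for 1824 falls the lowest 0 h library was at least 2-fold above the highest 8 h library. A further 6353 transcripts had groups that did not overlap and were not called, 3849 with 8 h above and 2504 with 8 h below, with a median change of 0.49 in size on the log2 scale.

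The 3 libraries at 8 h gave nearly the same picture. The median change over rising transcripts was 0.84, 0.84 and 0.82 on the log2 scale in 8 h replicates 1, 2 and 3, each against the 0 h mean. Over falling transcripts it was -1.01, -1.05 and -1.01. These transcripts were called with the same libraries, and the 3 values of a set share the same 0 h mean. Their likeness is therefore a description and does not include the spread at 0 h. Within a rising transcript, the highest and lowest of the 3 libraries differed by a median of 0.23, and within a falling transcript by 0.32. The median coefficient of variation over tested transcripts was 14.9% at 8 h and 19.3% at 0 h. The SD of log2 differences over transcripts was 0.531 to 0.549 between pairs of 8 h libraries and 0.579 to 0.704 between pairs of 0 h libraries, against 0.914 to 1.02 between an 8 h and a 0 h library. The difference between groups was thus larger than that between replicates in each of the 9 pairs.

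Calls were also set against libraries that had no part in them. Each of the 9 pairs of an 8 h and a 0 h library was left out in turn, transcripts were called with the other 7 shoot libraries, and the left-out pair was then compared. Between 2246 and 3053 rises and between 3695 and 4992 falls were called in these fits. The left-out 8 h library was higher than the left-out 0 h library for 94.5% to 97.7% of the rises and lower for 93.7% to 99.3% of the falls. The share differed little with size: its median over the 9 pairs was 96.4% for changes under 1.5-fold, 96.8% for 2- to 4-fold and 95.0% for over 8-fold. The size was smaller in the left-out pair, with a median of 0.70 to 0.94 for rises, against 0.96 to 1.14 in the fits that called them. For falls the median was -1.33 to -0.94 in the left-out pair, against -1.37 to -1.24 in those fits. The left-out size is a log2 ratio of normalized CPM with a small constant added to both levels. That constant lowers the size at low levels, so the measures are not alike and part of the difference can come from it. The scaling of the levels used all libraries. The share was highest for falls when 0 h replicate 2 was left out (98.5% to 99.3%) and lowest when 8 h replicate 3 and 0 h replicate 3 were (93.7%).

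**Figure D5:**
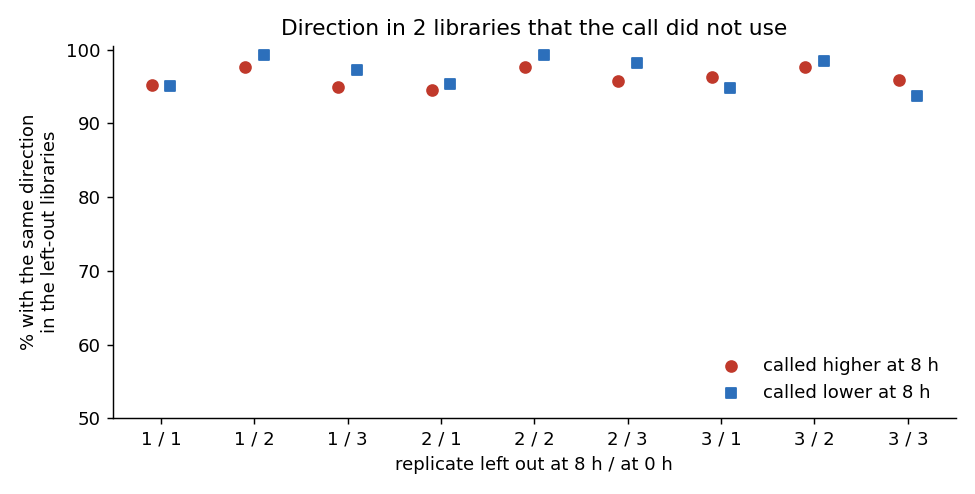
Percentage of called shoot transcripts whose direction was the same in the pair of libraries left out of the call, for the 9 pairs of an 8 h and a 0 h replicate, with rises in red and falls in blue. The vertical axis starts at 50%, and all 18 values lie between 93.7% and 99.3%.

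Larger changes withstood the loss of a library more often. Of the 10360 calls, 6698 (64.7%) were also made without each of the 6 libraries in turn, 2481 rises and 4217 falls. That held for 52.1% of called changes under 2-fold, 78.0% of those of at least 2-fold and 88.6% of those of at least 4-fold. Without a single library the number of calls lay between 7886 (without 8 h replicate 2) and 9708 (without 0 h replicate 1), with no shared call changing sign. In the fit with the top-10 percentage added as a covariate, 2689 transcripts were called, 933 higher and 1756 lower, of which 1888 were also called without it and 13 of these had the opposite sign. Since this percentage separates the groups without overlap, the covariate and the time of harvest cannot be told apart.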

How the data were processed

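Per the labels' protocols, total RNA from shoots was made into strand-keeping libraries. Estimated counts per transcript were deposited by the authors as whole numbers. Tools listed per the submitters' processing notes, with no roles, are kallisto 0.45, edgeR 3.40.1 and Trimmomatic. How transcripts were assembled, annotated and counted by strand is not stated there. The normalized CPM, a signal deposited by the authors, equals edgeR's TMM-scaled CPM over all 89295 transcripts with counts. Root libraries were not analysed here, and 0 value columns were left unmapped.

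In R 4.3.3, counts were rounded (no value changed), filtered with filterByExpr (edgeR 4.0.16, minimum count 10, by group), TMM-scaled and fitted with 1 mean per time to the 9 shoot libraries (glmQLFit, glmQLFTest, two-sided, Benjamini-Hochberg adjusted p under 0.05 over all tested transcripts). The tested transcripts held 99.1% to 99.3% of counts. The biological coefficient of variation was 0.169. SE is the log2 fold change over the square root of F. DESeq2 1.42.0 was an alternative. The tests were checked on simulated counts. Where a library lists 0, up to 3 counts remain possible (0.216 to 0.300 normalized CPM at these depths, counting error only).

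Transcripts named by ID were the 2 with the largest gain and the 2 with the largest loss in mean CPM among calls whose groups did not overlap. Others are given by rank, because no gene names come with the IDs. The comparison, rankings and rules were chosen with earlier results of these data known.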

Additional observations from a re-analysis of the deposited data

How the results depend on the processing

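Whether replicate numbers pair the samples could not be settled. Deviations from the group means correlated at -0.01, -0.022 and -0.14 between 8 h and 0 h libraries of the same number. Between libraries of unlike number they correlated at -0.11 to 0.14. With a replicate block 9259 transcripts were called, 3759 up and 5500 down, 1615 and 3087 at least 2-fold. The medians of the highest and lowest decile by 24 h level were then -0.15 and 0.25. With library size alone 8743 were called up, 3171 at least 2-fold and 573 at least 4-fold up (an alternative chosen after seeing the data), 1343 were up in the highest decile, and the medians of the highest and lowest decile were 0.087 and 0.47. DESeq2's size factors in edgeR gave 10368 calls and DESeq2 gave 9570. In the fit with the top-10 percentage as covariate there were 2689 calls, 933 up and 1756 down, 914 and 1742 at least 2-fold, 280 up and 586 down in the highest decile, 2007 with no overlap, and medians of -0.028 and -0.26. At adjusted p under 0.01 there were 6559 calls, all without overlap, 2347 up and 384 up in the highest decile, by construction fewer. Without a filter on low counts, where a decile holds more transcripts, 1312 were up and 2745 down in the highest decile. With a filter on the 24 h libraries alone the medians were -0.17 and 0.073, over deciles of 31804 transcripts that lie at higher levels. In a fit of the 6 libraries they were -0.14 and 0.27. Ranked by the 8 h level the highest decile had 991 up, 994 down and a median of 0.0053 (lowest decile -0.65), ranked by the 0 h level medians of -0.18 and 0.55, and ranked by the mean of both -0.082 and -0.0088.

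Leaving out each of the 9 replicates gave 7886 to 10582 calls, 3067 to 4637 up and 4819 to 5945 down, 1466 to 1878 at least 2-fold up and 2890 to 3228 at least 2-fold down. In the highest decile 464 to 697 were up and 1418 to 1670 down, with a median of -0.17 to -0.11, and the lowest decile had a median of 0.18 to 0.37. Calls without overlap numbered 7883 to 10422. Leaving out each of the 6 compared libraries moved the difference in top-10 share between -2.97 and -2.36 percentage points and that in top-100 share between -4.82 and -3.46. The cause of the shifts not said to be by construction was not tested. Of the 4 named transcripts, 67 of 68 values kept direction and call. The exception was S_Transcript_58763.p1 in the fit with the top-10 percentage (1.73), a percentage that its own counts enter at 8 h. The cause of this exception was not tested. Low counts limit the lower deciles, where the SE was largest.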
